A study of Mus musculus with 13 samples.

Results

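The 10 genes described here are targets that HIF, the hypoxia-inducible transcription factor, is known to switch on: Slc2a1, Hk2, Pfkfb3, Eno1, Ldha and Pdk1 of glucose metabolism, and Bnip3, Ndrg1, Car9 and Ankrd37 of the wider response to low oxygen. Each was taken as the 300 kb bin of the deposited 5-hydroxymethylcytosine (5hmC) table that holds most of its body, which gave 10 bins out of 9097, of which 8576 were tested. The table covers 13 breast tumours of FVB mice induced by polyoma middle T (PyMT), measured by shallow TAB-seq, in which the 5hmC bases alone still read as cytosine. The groups were Phd2+/- mice (heterozygous, n = 4) and Phd2+/+ mice (wild type, n = 3), both aged 16 weeks with no plasmid, and mice injected with PRRL2-sFlk1 (n = 3) or with empty PRRL2 (n = 3), both aged 12 weeks. Per the labels, the Phd2+/- genotype restores vessels and oxygenation in the tumour, while sFlk1, a soluble receptor that traps VEGF, makes tumours more hypoxic. The plasmids were given by hydrodynamic injection, a route that mainly reaches the liver. The labels give no deletion restricted to a cell type and do not name the promoter that drives PyMT. They name no litter or shared day, and each title names its own mouse.

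Oxygen controls HIF through prolyl hydroxylases, chiefly PHD2, which mark its alpha subunit for destruction while oxygen is present. When oxygen falls, HIF accumulates, binds a short core that contains a CpG, and switches cells to glucose uptake and lactate production. TET enzymes, which make 5hmC from 5-methylcytosine, also need oxygen, and 5hmC is known to be abundant in the bodies of active genes. Expression was not measured here. The tumours are bulk tissue, so fewer cells of a type and less 5hmC per cell cannot be told apart, and a bin reports all of the genes in it. The bins (GRCm38) were chr4:119100001-119400000 for Slc2a1, chr6:82500001-82800000 for Hk2, chr2:11400001-11700000 for Pfkfb3, chr4:150000001-150300000 for Eno1 and chr7:46800001-47100000 for Ldha. They were chr2:71700001-72000000 for Pdk1, chr7:138900001-139200000 for Bnip3, chr15:66900001-67200000 for Ndrg1, chr4:43500001-43800000 for Car9 and chr8:45900001-46200000 for Ankrd37. Of each bin, the named gene itself covered from 1.17% (Ankrd37) to 27.5% (Pfkfb3), and the bins overlapped 3 (Pdk1, Pfkfb3, Hk2 and Ndrg1) to 18 (Car9) protein-coding genes.

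RefSeq promoters (GRCm38.p6, 250 bases before to 50 after the start) were given for 9 of the 10 genes, all but Ndrg1. Of the HIF core only the form ACGTG was searched, on both strands, and the form GCGTG was not. ACGTG was present in the first-listed promoter of 7 of the 9 genes, all but Pdk1 and Eno1. The first-listed promoters of Pdk1 and Eno1 hold GCGTG, so they are not said to lack the core. Among all 27025 genes, 19.7% of first-listed promoters held ACGTG. The 3 promoters below are shown because all 3 carry ACGTG, while the bins around them lay on opposite sides of their surroundings in 5hmC. They lay above at Ldha and below at Bnip3 and Ankrd37. Capitals mark ACGTG or its reverse complement, which overlap each other in CACGTG. Matches were counted on each strand, so each CACGTG counts as 2. Ldha has 5 matches and 30 CpGs (chr7:46845554-46845853, plus strand). Bnip3 has 2 matches, both in the same CACGTG, and 27 CpGs (chr7:138909457-138909756, minus strand). Ankrd37 has 2 separate matches and 24 CpGs (chr8:45999801-46000100, minus strand).
Ldha: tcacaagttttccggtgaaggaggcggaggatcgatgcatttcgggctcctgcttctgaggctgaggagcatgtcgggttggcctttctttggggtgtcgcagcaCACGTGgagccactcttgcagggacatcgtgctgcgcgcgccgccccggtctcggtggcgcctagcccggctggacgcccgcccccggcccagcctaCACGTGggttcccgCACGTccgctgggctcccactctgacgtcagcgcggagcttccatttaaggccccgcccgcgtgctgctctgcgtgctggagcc
Bnip3: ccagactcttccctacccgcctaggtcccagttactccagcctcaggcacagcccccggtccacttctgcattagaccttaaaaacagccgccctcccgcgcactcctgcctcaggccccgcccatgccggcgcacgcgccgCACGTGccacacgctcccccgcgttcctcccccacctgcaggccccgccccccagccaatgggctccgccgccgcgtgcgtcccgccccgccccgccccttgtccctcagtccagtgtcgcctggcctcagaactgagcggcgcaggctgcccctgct
Ankrd37: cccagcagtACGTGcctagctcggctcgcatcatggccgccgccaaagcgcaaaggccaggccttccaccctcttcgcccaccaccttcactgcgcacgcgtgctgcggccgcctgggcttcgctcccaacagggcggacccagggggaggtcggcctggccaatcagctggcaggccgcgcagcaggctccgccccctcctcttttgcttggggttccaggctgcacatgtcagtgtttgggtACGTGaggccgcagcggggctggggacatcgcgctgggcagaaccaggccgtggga
The median first-listed promoter held 7 CpGs, and those of the 9 genes held more, up to 30 (Ldha and Pfkfb3), except Car9 with 5. ACGTG contains a CpG, so the 19.7% is not a share at a like CpG content. A match is a description of these letters. A promoter of 300 bases is a small part of a bin of 300 kb, so the 5hmC values do not resolve it.

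The 10 bins differed widely in level, and the order was led by Ndrg1 and Pdk1. Over the 13 tumours, Ndrg1 averaged 5.70% ± 1.73 (SD) and Pdk1 5.66% ± 1.24, and the Ndrg1 bin lay above 95.3% of all tested bins. Eno1 (4.45% ± 1.39), Car9 (4.31% ± 1.16), Pfkfb3 (4.24% ± 0.970) and Ldha (4.11% ± 0.954) followed, then Ankrd37 (3.71% ± 1.02) and Slc2a1 (3.68%, range 0.924% to 5.44%). Hk2 at 2.66% ± 0.767 and Bnip3 at 1.48% ± 0.581 were lowest. Among neighbours in this order, the paired difference within tumours was over 1 SD at only 2 of the 9 steps. These were Pdk1 over Eno1 (1.22 ± 1.21 percentage points, SD, n = 13) and Hk2 over Bnip3 (1.18 ± 0.753). At the other 7 steps the neighbours did not differ beyond their spread.

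Set against each tumour's own genome-wide mean, 5 bins (Ndrg1, Pdk1, Ldha, Pfkfb3 and Car9) were above it in 13 of 13 tumours. The Bnip3 bin was above it in 1 of 13, sFlk1 tumour 1. No share of all bins was computed for these counts, nor for the ratio given below. By their mean over the 13 tumours, 9 of the 10 genes lay above the genome-wide mean. So did 19 of 24 other glycolysis genes and 17 of 20 other hypoxia-inducible stress genes, so this is not particular to the 10. The genome-wide mean was 2.87% ± 0.265 in Phd2+/- tumours and 2.34% ± 0.137 in Phd2+/+ tumours (SD, n = 4 and 3), and 2.46% ± 0.0670 in sFlk1 tumours and 2.68% ± 0.158 in empty vector tumours (SD, n = 3 each). The mean over the 10 bins was 1.59 ± 0.134 and 1.68 ± 0.142 times that mean in the Phd2 model, and 1.45 ± 0.0978 and 1.41 ± 0.266 times in the plasmid model, in the same order of groups. The groups overlapped in this ratio in both models.

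**Figure D1:**
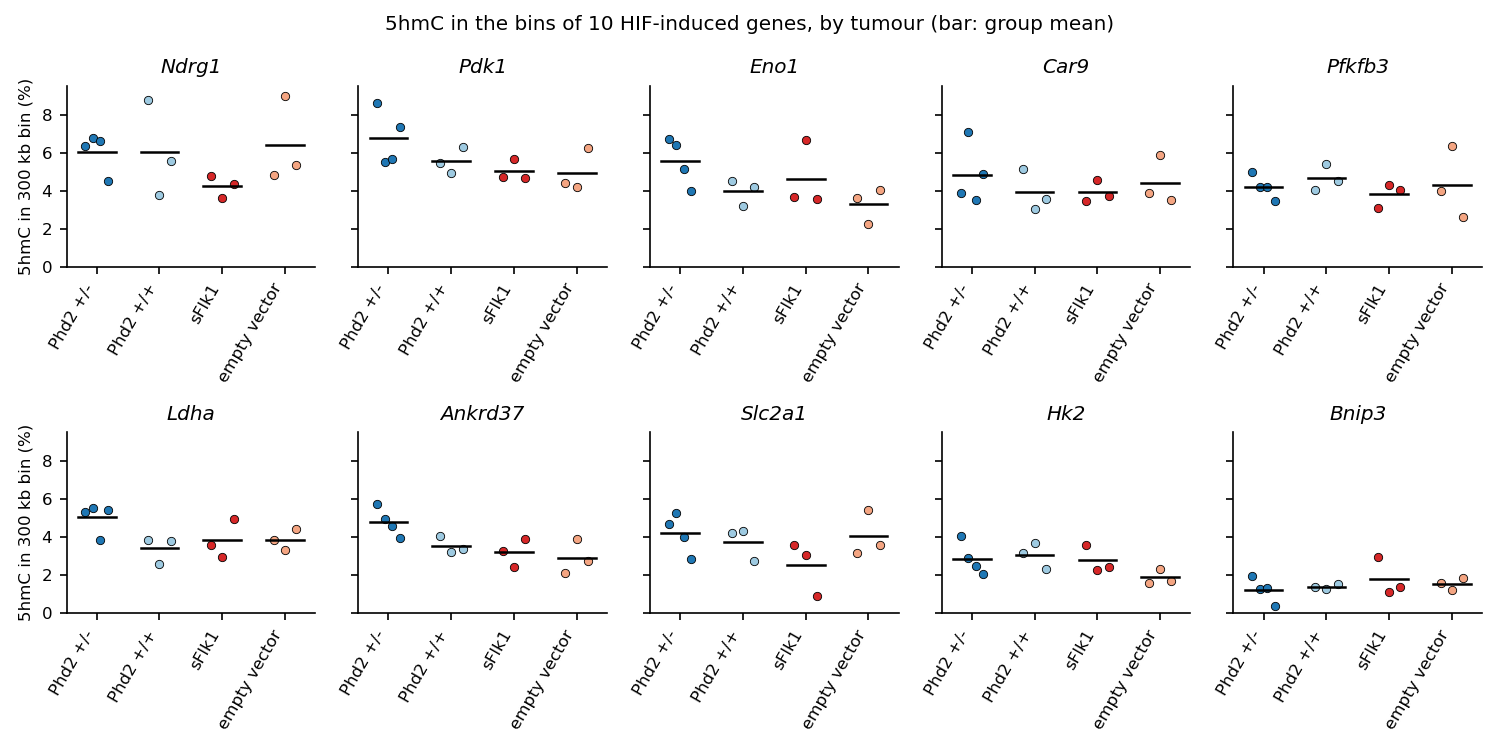
5hmC percentage (y axis, linear from 0) in the 300 kb bin of each of the 10 genes, ordered by level. Each point is 1 tumour and the bar is the group mean, with Phd2+/- left of Phd2+/+ and sFlk1 left of empty vector. In the Ldha panel 3 of 4 Phd2+/- tumours lie above all Phd2+/+ tumours, and in the Ndrg1 panel all sFlk1 tumours lie below all empty vector tumours.

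Several of the genes sat on local peaks or dips of 5hmC, as many bins of the genome do. Each bin was compared with the mean of the 2 bins on either side in the same tumour, and limma tested the mean difference over the 4 groups across 8470 bins. Of all bins, 24.8% were called higher and 34.4% lower than their flanks, so being called is common. Of the 10 genes, 4 were called higher (Ndrg1, Ldha, Pdk1 and Pfkfb3) and 3 lower (Eno1, Ankrd37 and Bnip3). These counts are not read as a trait of the 10 genes. The mean excess over the 13 tumours lay above that of 94.6% of bins at Ldha, 88.7% at Pdk1 and 78.7% at Pfkfb3. It lay above that of 14.2% at Bnip3, 7.15% at Ankrd37 and 3.20% at Eno1. Slc2a1 (-0.330 points, limma adjusted p = 0.343), Hk2 and Car9 were not called. Against only the nearest bin on each side the same 7 genes were called in the same directions, with other sizes at Ldha (1.17 points), Pfkfb3 (1.21 points) and Bnip3 (-2.55 points).

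Ndrg1 encodes a stress-responsive protein induced by low oxygen, and its bin was among the sharpest of the genome in this measure, with an excess above that of 99.4% of bins. The bin averaged 5.70% and its flanks 1.87% over the 13 tumours. The excess was 3.85 percentage points (SE 0.390, limma adjusted p = 1.55e-09), and it was above 0 in 13 of 13 tumours, from 1.48 to 7.55 points. It was present in each group: 2.57 to 4.31 points in Phd2+/- and 1.93 to 7.24 in Phd2+/+ tumours, 1.48 to 3.63 in sFlk1 and 3.18 to 7.55 in empty vector tumours. The bin overlaps only 2 other protein-coding genes, Ccn4 and St3gal1, so the peak is not assigned to Ndrg1 alone.

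Ldha, which encodes the lactate dehydrogenase subunit that favours lactate formation, also stood out. Its bin averaged 4.11% and its flanks 2.03%. The excess of 2.02 percentage points (SE 0.270, limma adjusted p = 2.22e-07) was positive in 13 of 13 tumours. The bin also holds Ldhc, a related lactate dehydrogenase gene.

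Pdk1 encodes a kinase that shuts down pyruvate dehydrogenase and so keeps pyruvate out of mitochondria. Its bin exceeded the flanks by 1.38 points (SE 0.338, limma adjusted p = 8.69e-04), in 10 of 13 tumours. Pfkfb3 makes a potent activator of phosphofructokinase. Its bin was 0.767 points above the flanks (SE 0.272, limma adjusted p = 0.0165) in 11 of 13 tumours, a call that was lost without Phd2+/+ tumour 2 (limma adjusted p = 0.0651) or without empty vector tumour 2 (0.0784).

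Eno1, the gene of a glycolytic enolase, lay in a dip beside higher ground. Its bin averaged 4.45% while the flanks averaged 6.39%, a difference of -1.93 points (SE 0.318, limma adjusted p = 5.83e-06), and it was below the flanks in all tumours but sFlk1 tumour 2. The next bin along the chromosome held 8.21%, and the Eno1 bin includes part of Rere, which runs on into it. For Ankrd37, a hypoxia-induced ankyrin repeat gene, the difference was -1.56 points (SE 0.276, limma adjusted p = 1.68e-05), and it was negative in 13 of 13 tumours.

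Bnip3, which drives removal of mitochondria when oxygen is low, had the lowest bin of the 10, with 1.48% against 2.61% in its flanks. The difference was -1.09 points (SE 0.193, limma adjusted p = 1.65e-05), and 2 of 13 tumours went the other way. Here the gene straddles a bin boundary: 50.9% of it lies in this bin, and the rest in the bin before, which averaged 2.31%. The bin after held 5.86%, and the outer flanks 0.503% (before) and 1.77% (after), so the flank mean leans most on the bin after. On the log2 scale the call was close to the threshold (limma adjusted p = 0.0487), with 3 of 13 tumours above their flanks.

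**Figure D2:**
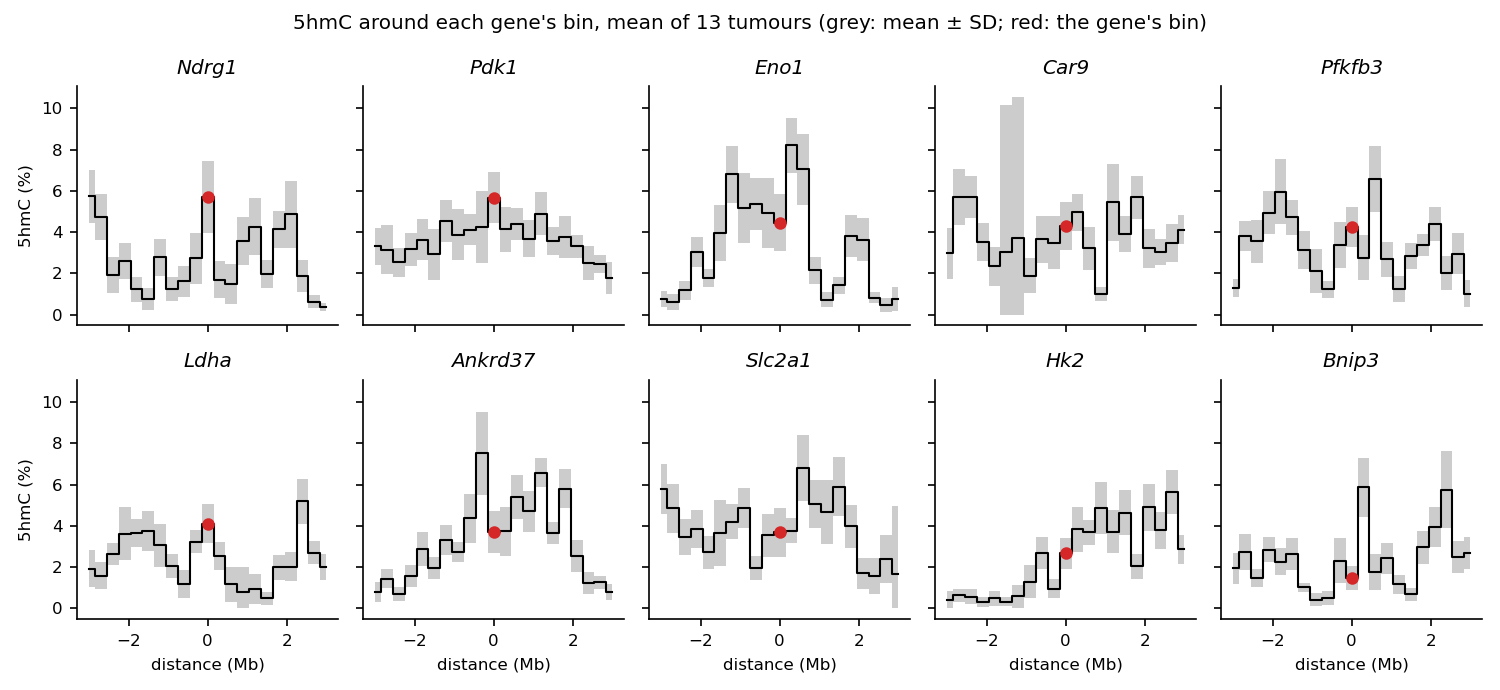
5hmC percentage (y axis) in 300 kb bins against distance from the gene's bin in Mb (x axis), mean of 13 tumours, with the mean ± SD in grey and the gene's own bin in red. The Ndrg1 and Ldha bins rise above their neighbours, while the Eno1, Ankrd37 and Bnip3 bins lie beside a higher bin.

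**Figure D3:**
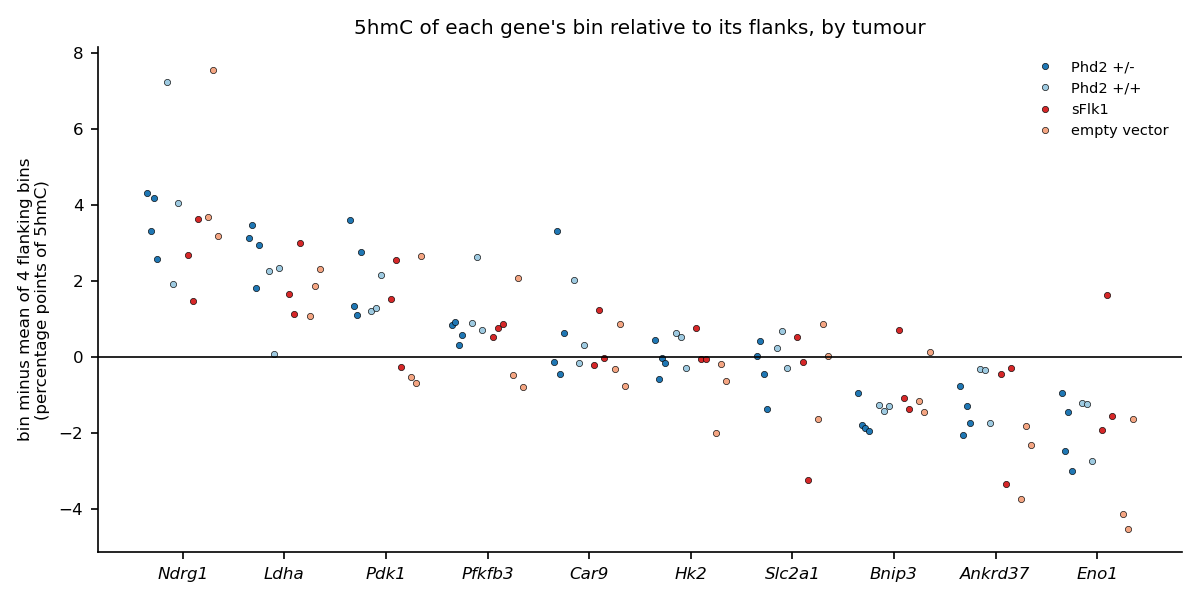
Difference in percentage points between each gene's bin and the mean of its 4 flanking bins (y axis), with 1 point per tumour, coloured by group. All 13 tumours lie above 0 at Ndrg1 and Ldha and below 0 at Ankrd37.

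The comparison of Phd2+/- with Phd2+/+ tumours asks whether 5hmC at these genes differs with a genotype that restores oxygenation. PHD2 itself acts on HIF, so the genotype and the oxygenation cannot be told apart here. The mean was higher in Phd2+/- tumours for 7 of the 10 bins (Slc2a1, Ldha, Pdk1, Eno1, Ndrg1, Car9 and Ankrd37) and lower for 3 (Pfkfb3, Hk2 and Bnip3). None of the 10 passed with limma after adjustment over all bins. Of all 8576 bins 0% passed, with 10.8% under an unadjusted p of 0.05 against 1 of the 10, Ldha. Of all bins 75.1% were higher, and the median difference was 0.38 points over all bins and 0.69 points over the 10. Since 8 of the 10 lie in the 2 highest of 5 classes of bins by level, the background at that level is also given: 92.9% of its bins were higher in Phd2+/- tumours, with a median difference of 0.99 points. Of the 8, 7 were higher, with a median of 1.08 points. The count is close to that background. Without single tumours the median over the 10 ran from 0.14 points (Phd2+/- tumour 2 left out) to 1.28 points (Phd2+/+ tumour 1 left out), and it was 0.45 without Phd2+/- tumour 1 and 0.35 without Phd2+/+ tumour 3.

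Ldha showed the largest difference of the 10 in points. Phd2+/- tumours held 5.33%, 5.55%, 3.83% and 5.43%, and Phd2+/+ tumours 3.85%, 2.59% and 3.79%. Of the Phd2+/- tumours, 3 were above all Phd2+/+ tumours and the third overlapped them. The difference was 1.62 points (SE 0.683, 95% interval 0.221 to 3.03, limma adjusted p = 0.405).

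Eno1 and Ankrd37 followed the same pattern. At Eno1, Phd2+/- tumours held 6.73%, 6.38%, 5.11% and 3.97%, and Phd2+/+ tumours 4.50%, 3.20% and 4.20%. The difference was 1.58 points (SE 0.818, 95% interval -0.103 to 3.26, limma adjusted p = 0.478), and only the fourth Phd2+/- tumour was below the highest Phd2+/+ tumour. Ankrd37 had 5.76%, 4.92%, 4.58% and 3.93% in Phd2+/- tumours, and 4.06%, 3.22% and 3.35% in Phd2+/+ tumours. Again the fourth Phd2+/- tumour alone fell within the Phd2+/+ range (difference 1.25 points, SE 0.651, 95% interval -0.0838 to 2.59, limma adjusted p = 0.478).

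Pdk1 reached the highest value of the Phd2 model outside Ndrg1. It held 8.62%, 5.48%, 5.69% and 7.34% in Phd2+/- tumours, and 5.45%, 4.95% and 6.27% in Phd2+/+ tumours. The groups overlapped, with Phd2+/- tumours 2 and 3 inside the Phd2+/+ range (difference 1.23 points, SE 0.857, limma adjusted p = 0.595), and the difference was 0.61 points without Phd2+/- tumour 1. Car9, the gene of a membrane carbonic anhydrase that handles acid outside the cell, had 3.89%, 7.10%, 3.49% and 4.87% against 5.11%, 3.05% and 3.55% in the same order of groups. Its difference of 0.93 points (SE 0.819, limma adjusted p = 0.683) was 0.18 points without Phd2+/- tumour 2, 0.51 without Phd2+/+ tumour 2 and 1.54 without Phd2+/+ tumour 1.

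At the entry of the pathway, differences were small. Slc2a1, which encodes the glucose transporter GLUT1, had 4.71%, 5.27%, 3.99% and 2.87% in Phd2+/- tumours, and 4.22%, 4.33% and 2.72% in Phd2+/+ tumours, with overlap (difference 0.45 points, SE 0.755, limma adjusted p = 0.845). For Hk2, the hexokinase that traps glucose in the cell, the values were 4.05%, 2.89%, 2.50% and 2.04% against 3.17%, 3.67% and 2.30%. The Hk2 difference was -0.18 points (95% interval -1.39 to 1.03, limma adjusted p = 0.937). Pfkfb3 had 5.00%, 4.19%, 4.16% and 3.47% in Phd2+/- tumours, and 4.02%, 5.41% and 4.52% in Phd2+/+ tumours (difference -0.44 points, SE 0.760, limma adjusted p = 0.849). The 95% intervals at these 3 genes include changes of over 1 point either way, so they do not show that the groups were alike.

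Ndrg1 had 6.34%, 6.78%, 6.59% and 4.49% in Phd2+/- tumours, and 8.79%, 3.79% and 5.54% in Phd2+/+ tumours. The Phd2+/+ tumours spanned the whole Phd2+/- range, and the difference was 0.01 points (95% interval -2.15 to 2.17, limma adjusted p = 0.999). Bnip3 had 1.93%, 1.29%, 1.32% and 0.390% against 1.35%, 1.25% and 1.51% in the same order (difference -0.14 points, 95% interval -1.09 to 0.82, limma adjusted p = 0.938). Relative to the genome-wide mean of each tumour, Bnip3 stood at 0.42 ± 0.208 in Phd2+/- and 0.59 ± 0.037 in Phd2+/+ tumours (SD, n = 4 and 3).

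The direction of this comparison depended on scale. When each tumour was scaled to its median bin, 5 of the 10 genes were higher and 5 lower in Phd2+/- tumours, with 4375 of 8576 bins higher, and the median over the 10 was -0.08 points. This scaling takes out a shift shared by all bins, so a near-even split of all bins follows from it. The differences so scaled were 0.95 points at Ldha, 0.70 at Eno1, 0.51 at Ankrd37, 0.22 at Pdk1 and 0.18 at Car9. They were -0.35 at Slc2a1, -0.41 at Bnip3, -0.77 at Hk2, -1.07 at Ndrg1 and -1.30 at Pfkfb3. In windows of 900 kb around each gene, 10 of 10 were higher in Phd2+/- tumours, as were 7279 of 8576 windows, and 0 of the 10 passed with limma (lowest adjusted p = 0.0946).

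**Figure D4:**
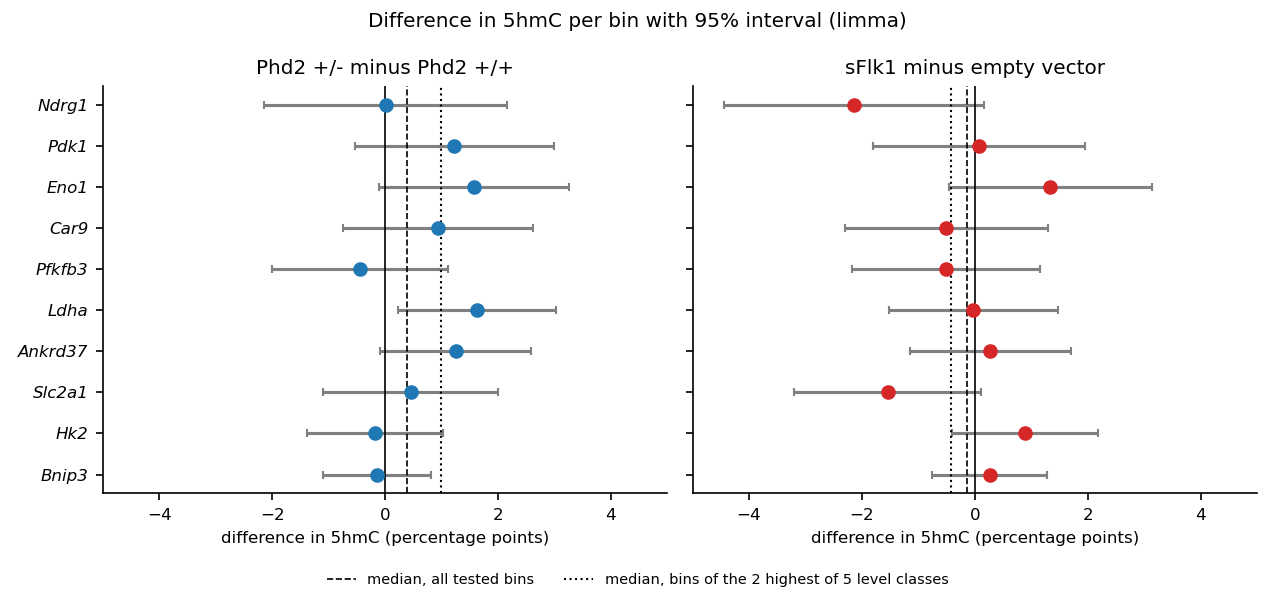
Difference in 5hmC (x axis, percentage points) at each gene's bin, Phd2+/- minus Phd2+/+ tumours on the left and sFlk1 minus empty vector tumours on the right, with limma's 95% interval. Dashed and dotted lines give the median of all tested bins and of the 2 highest of 5 level classes, 0.38 and 0.99 points on the left and -0.15 and -0.43 on the right; all intervals but that of Ldha on the left include 0.

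In the plasmid model the question is whether 5hmC at these genes differs when vessels are lost and oxygen falls. The mean was lower in sFlk1 tumours for 5 of the 10 bins (Slc2a1, Ldha, Pfkfb3, Ndrg1 and Car9) and higher for 5 (Pdk1, Eno1, Hk2, Bnip3 and Ankrd37). None of the 10 passed with limma, where 0.0117% of all bins did, and 0 of 10 had an unadjusted p under 0.05, where 7.18% of all bins did. Of all bins 40.3% were higher in sFlk1 tumours, and in the 2 highest level classes 30.2%, against 3 of the 8 genes in those classes. The median difference was 0.03 points over the 10, against -0.15 over all bins. In the 2 highest level classes it was -0.27 points over the 8 genes and -0.43 over all bins of those classes. Without single tumours the median over the 10 ran from -0.24 to 0.22 points.

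Ndrg1 was the 1 bin of the 10 in which the groups did not overlap. It held 4.77%, 3.59% and 4.35% in sFlk1 tumours, and 4.80%, 8.97% and 5.36% in empty vector tumours. All 3 sFlk1 tumours were below all 3 empty vector tumours, narrowly at the closest pair, and 8.24% of all bins showed the same. The difference was -2.14 points (SE 1.12, 95% interval -4.44 to 0.168, limma adjusted p = 0.702), and it was -0.84 points without empty vector tumour 2, the highest value in the series at this gene. The reverse separation, with all sFlk1 tumours higher, was seen at 0 of the 10 and at 3.43% of all bins. In the Phd2 model the separations were 0 of 10 in both directions, against 11% of bins with all Phd2+/- tumours higher and 0.933% with all lower.

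Slc2a1 had 3.56%, 3.08% and 0.924% in sFlk1 tumours, and 3.15%, 5.44% and 3.60% in empty vector tumours. The third sFlk1 tumour held the lowest Slc2a1 value of all 13 tumours. The difference was -1.54 points (SE 0.807, 95% interval -3.20 to 0.114, limma adjusted p = 0.702), -0.75 points without that tumour and -0.86 without empty vector tumour 2.

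Eno1 and Hk2 had higher means in sFlk1 tumours. Eno1 held 3.68%, 6.64% and 3.55% against 3.59%, 2.24% and 4.03% in empty vector tumours, and the difference of 1.34 points (SE 0.875, limma adjusted p = 0.761) was 0.33 without sFlk1 tumour 2 and 0.81 without empty vector tumour 2. Hk2 held 3.60%, 2.28% and 2.43% in sFlk1 tumours, and 1.58%, 2.34% and 1.72% in empty vector tumours. Here 2 of 3 sFlk1 tumours were above all empty vector tumours (difference 0.90 points, SE 0.630, 95% interval -0.398 to 2.19, limma adjusted p = 0.774), and the difference was 0.48 points without sFlk1 tumour 1.

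The other 6 genes had differences from -0.52 points (Pfkfb3) to 0.28 points (Ankrd37), each with limma adjusted p of 0.910 or more. Ldha averaged 3.83% ± 1.01 in sFlk1 and 3.86% ± 0.552 in empty vector tumours (SD, n = 3 each), and Pdk1 5.01% ± 0.555 and 4.93% ± 1.13. Pfkfb3 averaged 3.79% ± 0.634 and 4.31% ± 1.90, and Car9 3.91% ± 0.592 and 4.41% ± 1.28. Bnip3 averaged 1.82% ± 0.998 and 1.56% ± 0.297, and Ankrd37 3.20% ± 0.761 and 2.92% ± 0.917. In the Bnip3 bin, sFlk1 tumour 1 held 2.96%, the highest of all 13 tumours. In windows of 900 kb, 2 of the 10 were higher in sFlk1 tumours, as were 2880 of 8576 windows, and the median over the 10 was -0.53 points.

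Both contrasts were then set against each other in 1 fit, as Phd2+/- minus Phd2+/+ minus the difference of sFlk1 and empty vector tumours. The result was positive for 8 of the 10 genes, all but Hk2 and Bnip3, with 72.3% of all bins positive, and 0 of the 10 passed with limma (0.0117% of all bins). At an unadjusted p under 0.05 there were 0 of the 10 and 13% of all bins. The median was 1.06 points over the 10 and 0.54 over all bins, and 0.60 over the 10 without Phd2+/- tumour 1. In the 2 highest level classes the median was 1.29 points over the 8 genes and 1.42 over all bins of those classes. The median of these 8 genes thus did not exceed that of the background at their level. All 8 were positive, and no share of positive bins was computed at that level. Slc2a1 had the smallest adjusted p of the 10 (difference of differences 1.99 points, SE 1.11, limma adjusted p = 0.447). It was 1.196 points without sFlk1 tumour 3 and 1.31 without empty vector tumour 2. Age and injection also differ between the models and cannot be told apart from the model.

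In the other genes of the pathway, both lists were mostly higher in Phd2+/- tumours, while in the plasmid model their medians had opposite signs. Of 24 other glycolysis and glucose metabolism genes, 21 had a higher mean in Phd2+/- tumours (median difference 0.95 points) and 14 a higher mean in sFlk1 tumours (median 0.42 points). Of 20 other hypoxia-inducible stress genes, the counts were 18 in Phd2+/- (median 0.95 points) and 6 in sFlk1 tumours (median -0.41 points). Of all bins, 75.1% were higher in Phd2+/- and 40.3% in sFlk1 tumours. In the 2 highest level classes, which hold 17 genes of each list, the shares were 92.9% and 30.2%. The Phd2+/- counts lie between these background shares. In sFlk1 tumours 14 of 24 lies above both shares, while 6 of 20 does not. The median over all bins was -0.15 points there, and these contrasts with the background were not tested. No gene of either list passed with limma in either comparison, the lowest adjusted p being 0.337 in the Phd2 model and 0.466 in the plasmid model. All 4 Phd2+/- tumours were above all Phd2+/+ tumours at 5 of the 24 and 4 of the 20, and at 11% of all bins. The contrast with the 10 genes, where 0 were so separated, was not tested.

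In the Phd2 model, the phosphoglycerate kinase gene Pgk1, the enolase gene Eno3 and the aldolase gene Aldoa had the smallest p of their list. Eno3 held 5.14% ± 0.586 in Phd2+/- and 3.64% ± 0.833 in Phd2+/+ tumours (SD, n = 4 and 3), Aldoa 5.19% ± 0.319 and 3.69% ± 0.234, and Pgk1 5.08% ± 0.347 and 3.16% ± 0.490. Among stress genes these were the lipoprotein receptor gene Vldlr (6.44% ± 1.97 and 3.67% ± 1.02), the vessel peptide gene Adm (6.64% ± 1.27 and 4.23% ± 0.449) and the histone demethylase gene Kdm3a (6.20% ± 0.672 and 4.18% ± 0.879). The limma adjusted p ran from 0.337 to 0.428 over these 6.

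In the plasmid model, Pfkfb4, a relative of Pfkfb3, held 2.44% ± 0.0960 in sFlk1 and 4.12% ± 0.512 in empty vector tumours (SD, n = 3 each; limma adjusted p = 0.661). All sFlk1 tumours were below all empty vector tumours here and at Stc2 and Vldlr, as at 8.24% of all bins. These genes were named for the smallest p of their list, so the separation is no further support. The lactate transporter gene Slc16a1 held 3.07% ± 0.548 and 4.56% ± 1.59, and Pgk1 4.40% ± 0.862 and 2.97% ± 0.939. Stc2, the gene of a secreted glycoprotein, held 1.40% ± 0.838 and 3.34% ± 0.672, and Vldlr 3.15% ± 0.841 and 5.53% ± 1.08. The prolyl hydroxylase gene Egln3 went the other way with 7.28% ± 1.33 and 4.82% ± 0.234. There all sFlk1 tumours were above all empty vector tumours, as at 3.43% of all bins. Vldlr and Pgk1 were named in both models: Vldlr had a higher mean in Phd2+/- and a lower mean in sFlk1 tumours, and Pgk1 a higher mean in both.

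**Figure D5:**
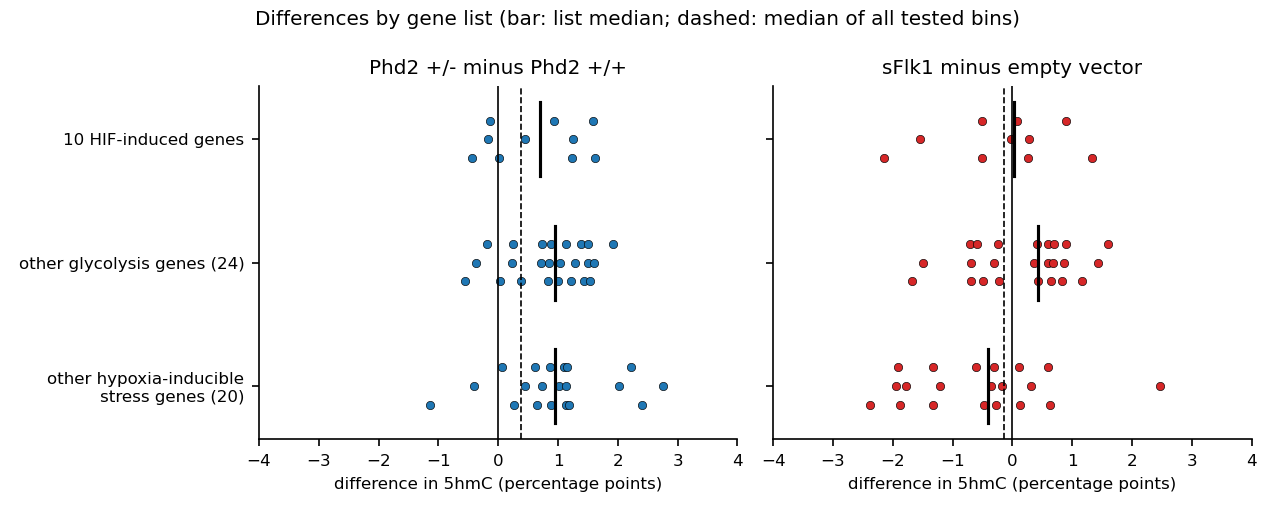
Difference in 5hmC (x axis, percentage points) for each gene's bin in 3 lists, with 1 point per gene, the list median as a bar and the median of all tested bins dashed. On the left (Phd2+/- minus Phd2+/+) list medians are 0.69, 0.95 and 0.95 from top to bottom; on the right (sFlk1 minus empty vector) they are 0.03, 0.42 and -0.41.

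Markers of luminal epithelial, endothelial, fibroblast and leukocyte cells were read in the same way, since 5hmC of a bulk tumour depends on which cells it holds. A marker can be a small part of its bin (Cd14 covers 0.584%), so these values do not count cells. In Phd2+/- tumours 5 of 7 luminal, 3 of 5 endothelial, 4 of 4 fibroblast and 4 of 5 leukocyte marker genes had a higher mean than in Phd2+/+ tumours, and in sFlk1 tumours 1 of 7, 1 of 5, 4 of 4 and 3 of 5 against empty vector. Of all bins 75.1% and 40.3% were higher in these comparisons, and the 7 luminal genes lie in 6 bins, since Krt8 and Krt18 share 1. No background share was computed for the means over a list given next. None passed with limma. The mean over the 4 fibroblast genes was 2.89% to 4.23% in Phd2+/- tumours and 2.36% to 3.14% in Phd2+/+ tumours. It was 3.22% to 4.01% in sFlk1 tumours and 2.33% to 2.72% in empty vector tumours, which did not overlap. The mean over the 7 luminal genes was 5.31% to 5.84% in Phd2+/- tumours and 3.49% to 4.91% in Phd2+/+ tumours, and 4.20% to 4.94% and 4.80% to 5.85% in sFlk1 and empty vector tumours. For the 5 endothelial genes it was 3.69% to 4.85% and 3.33% to 4.31%, then 3.12% to 4.16% and 3.54% to 4.46%, in the same order of groups. For the 5 leukocyte genes it was 2.64% to 3.50% in Phd2+/- tumours and 1.73% to 2.46% in Phd2+/+ tumours, which did not overlap, and 2.12% to 2.84% in sFlk1 and 2.26% to 3.03% in empty vector tumours. The luminal ranges of the Phd2 model did not overlap either, but nor did those of the genome-wide mean. That mean was 2.54% to 3.17% in Phd2+/- and 2.18% to 2.42% in Phd2+/+ tumours. It was 2.39% to 2.52% in sFlk1 and 2.57% to 2.86% in empty vector tumours. The luminal and leukocyte separations thus had the direction of the whole genome, and the fibroblast separation of the plasmid model the opposite one. The mean of each marker over the 13 tumours was above 0, and the part of cell composition in the values of the 10 genes was not tested.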

How the data were processed

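The authors deposited 1 table of 5hmC percentages per 300 kb bin and tumour. Per the labels' protocols, DNA was extracted with 200 µM DFO, TAB-converted and bisulfite-treated. The submitters' processing notes list Bismark 0.13.1 and the build mm9, with no role given, yet the last bins end at GRCm38 lengths (195471971 on chromosome 1), so coordinates are GRCm38. How reads were pooled within bins, filtered on coverage and corrected for conversion is not given in the sources used here. No read counts were given, so depth is unknown, counts could not be tested and no counting interval can be given.

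Genes were matched by symbol to RefSeq GRCm38.p6 (75 of 75 listed) and assigned to the bin holding most of the body. The members and lists were chosen with earlier results of these data known. All 10 members were named, and from each of the other pathway lists the 3 genes with the smallest p in each comparison. Krt8 and Krt18 share a bin, as do Pdk2 and Col1a1. Bins of chromosome Y and of mitochondria, and those at 0 in all tumours, were dropped, leaving 8576. Percentages were fitted with limma 3.58.1 in R 4.3.3 with a variance trend, all 13 tumours and 4 group means, with Benjamini-Hochberg adjustment over all bins at 0.05. The fit of bin minus flanks used bins with 4 tested flanks (8470). Level classes were 5 equal groups by mean over the tumours. The steps were tested on simulated data. The alternatives tried were a log2 scale with 0.5 added, scaling to the tumour median, only the groups compared, no variance trend, bins above 0 in all tumours (7338), 900 kb windows, the replicate number as a block, and each tumour left out. P-values set each difference against the spread between tumours, 1 per mouse, which also holds the sampling of reads at an unknown depth.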

Additional observations from a re-analysis of the deposited data

Results flagged for a closer look

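In a group of 4 tumours, 1 value can lie far from the other 3. Of 22 such sets of Phd2+/- values examined, 2 had a gap past Dixon's 95% value, and chance gives about 1 in 20. In the Ldha bin, Phd2+/- tumour 3 held 3.83%, while the other 3 held 5.33% to 5.55%. In the Stc2 bin, Phd2+/- tumour 2 held 1.45%, while the highest of the other 3 held 2.60%.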

How the results depend on the processing

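None of the 10 genes passed with limma under any alternative: the smallest adjusted p was 0.0946 for Phd2+/- minus Phd2+/+, 0.557 for sFlk1 minus empty vector and 0.0585 for the difference between them. Of single values, 566 kept direction and side of the threshold, 51 changed sign and 2 lost the threshold, both at the flanks of Pfkfb3. Of summaries, 187 held and 26 moved. The causes were not tested.

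Scaled to the tumour median, the Phd2 differences were -0.348 (Slc2a1), -1.07 (Ndrg1) and -0.0818 (median), the plasmid differences 0.290 (Ldha) and 0.348 (median), and the differences between contrasts -0.229 (Pdk1), -0.945 (Eno1), -1.08 (Pfkfb3) and -0.114 (median), with 5 genes positive. In 900 kb windows the Phd2 differences were 0.462 (Pfkfb3), 0.0238 (Hk2) and 0.406 (Bnip3), and the plasmid differences -0.737 (Pdk1), -0.495 (Eno1), -0.831 (Ankrd37) and -0.528 (median), with 2 genes higher and 0 bins called, while Bnip3 was 0.267 between contrasts with 2 bins called. On the log2 scale 1 bin was called for Phd2 and 2 between contrasts, where Pfkfb3 was -0.0309, and the Hk2 excess over its flanks was 0.0582. Between contrasts 3 bins were called without the variance trend and 0 among bins above 0 in all tumours. With 1 flank on each side the excess was 0.0346 (Slc2a1) and 0.270 (Hk2). Among bins above 0 in all tumours, Bnip3 could not be fitted against its flanks.

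With the replicate number as a block, Hk2 was 0.101 and Bnip3 0.144 in the Phd2 model. Both equal the values without Phd2+/- tumour 4, which has no partner and drops out of the blocked contrast. Bins called were 0 (Phd2), 1 (plasmid) and 1 (between contrasts). The labels do not say that equal numbers are paired. Same-numbered tumours had deviations correlated from -0.0934 to -0.00429, and differently numbered tumours of the compared groups from -0.0554 to 0.0787. These values do not settle whether equal numbers share a litter or day.

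With single tumours left out, the Phd2 values ran from 0 to 1 bins called, 5 to 9 genes higher, and 0.138 to 1.28 (median), -0.0669 to 0.899 (Slc2a1), -0.570 to 0.134 (Hk2), -0.371 to 0.144 (Bnip3) and -1.12 to 1.38 (Ndrg1). In the plasmid model they ran from 1 to 4 bins called, 3 to 6 genes higher, and -0.243 to 0.224 (median), -0.582 to 0.400 (Ldha), -0.295 to 0.729 (Pdk1), -1.37 to 0.506 (Pfkfb3), -0.309 to 0.608 (Bnip3), -0.959 to 0.227 (Car9) and -0.139 to 0.768 (Ankrd37). Between contrasts they ran from 1 to 3 bins called, 6 to 8 genes positive, and 0.596 to 1.41 (median), -0.295 to 1.25 (Eno1), -0.948 to 0.925 (Pfkfb3) and -0.746 to 0.171 (Bnip3). At the flanks 3 to 4 genes were called higher, and Hk2 ran from -0.223 to 0.00539. Leaving out tumours was added after seeing the data for the flanks alone. A coverage minimum could not be tried, since no coverage was given. Depth is unknown, so precision rests on the spread between tumours.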
